A study of Mus musculus with 2 samples.

Results

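The microRNAs of 3 imprinted loci were followed in the midbrain of newborn mice: Mir335 of the Mest locus, Mir483 and Mir675 of the Igf2-H19 locus, and Mir296 and Mir298 of the Gnas locus. They are 5 of the 1973 microRNA genes in the deposited tables and were chosen by name, by matching gene identifiers to GENCODE mouse symbols. The series has 1 group of 2 untreated animals of the strain B6NCrl at postnatal day 0, pup 3 and pup 1, with 1 library from a single midbrain of each, made from total RNA with a stated size range under 30 bases. The labels give both animals the same donor identifier and no sex, and there is no other tissue, age, genotype or treatment. The 5 hairpins together took 6.31% of the own-strand counts in pup 3 and 4.93% in pup 1, and most of that was Mir335.

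MicroRNAs are cut from hairpin precursors by Drosha and Dicer and guide Argonaute to messenger RNAs through the seed, the short stretch near their 5′ end. At imprinted loci only the copy inherited from 1 parent is normally transcribed, so a microRNA inside such a gene is expected to come mainly from that parent's chromosome. Mest, Igf2 and the antisense transcripts of the Gnas locus are paternally expressed and H19 is maternally expressed. In the brain Igf2 is a known exception, transcribed from both parental copies in the choroid plexus and the leptomeninges. The counts carry no allele information, so parental origin was not measured here.

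RefSeq (build GRCm38.p6) holds both mature arms of all 5 hairpins, at the same positions and with the same hairpin sequence as GENCODE M21. They are shown because the seed, given in capitals (bases 2 to 8), decides which messenger RNAs each arm can pair with, and because no seed here is shared with another. The arms are written 5′ to 3′.
mmu-miR-335-5p: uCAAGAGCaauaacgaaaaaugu
mmu-miR-335-3p: uUUUUCAUuauugcuccugacc
mmu-miR-298-5p: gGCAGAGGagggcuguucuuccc
mmu-miR-298-3p: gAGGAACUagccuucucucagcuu
mmu-miR-296-5p: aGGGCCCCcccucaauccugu
mmu-miR-296-3p: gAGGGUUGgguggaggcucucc
mmu-miR-483-5p: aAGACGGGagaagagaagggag
mmu-miR-483-3p: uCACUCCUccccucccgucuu
mmu-miR-675-5p: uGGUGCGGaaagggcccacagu
mmu-miR-675-3p: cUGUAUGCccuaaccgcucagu

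The 10 arms carry 10 different seeds, and none of them occurs in another of the 1679 mouse mature arms in the RefSeq table, of which 72.1% have a seed of their own. The members are therefore no seed family, and the pair at the Gnas locus shares no seed either. The longest run of bases common to any pair of the 5 hairpins was 7 bases. No hairpin had a run of at least 20 bases in common with another microRNA hairpin of the annotation, which 919 of the 1973 genes do. In a search of 141767 annotated transcripts on both strands, an exact copy of an arm was found only for miR-675, in H19 itself, where its hairpin lies. The deposited counts leave out reads that map to several places, so this bears on how completely the members were counted. The genome outside annotated transcripts was not searched.

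The reads were counted per hairpin, so the shares of the 5p and the 3p arm were not measured. The hairpins of Mir335, the most abundant member, and of Mir298 and Mir296, the neighbouring pair, are given with their mature arms in capitals to show which stretches the counts can come from.
Mir335: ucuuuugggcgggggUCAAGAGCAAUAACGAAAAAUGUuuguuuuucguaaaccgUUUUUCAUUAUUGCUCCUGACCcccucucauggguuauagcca
Mir298: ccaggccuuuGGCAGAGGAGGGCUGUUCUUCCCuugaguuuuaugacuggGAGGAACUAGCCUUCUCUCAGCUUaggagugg
Mir296: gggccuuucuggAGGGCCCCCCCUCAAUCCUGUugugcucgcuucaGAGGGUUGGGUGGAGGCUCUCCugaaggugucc

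In composition Mir335 stood apart from the rest. Its hairpin of 98 bases had a GC content of 42.9%, while Mir298 had 53.7%, Mir483 58.9%, Mir675 63.1% and Mir296 63.3%, against a median of 50.5% over the 359 detected hairpins. The predicted folding energy ran from -33.8 kcal/mol for Mir483 to -56.0 kcal/mol for Mir675. Per base, all 5 folded more stably than the median of -0.38 kcal/mol, from -0.45 for Mir335 to -0.67 for Mir675. This median is over 1894 hairpins, detected or not, unlike that of GC content. Only 23 of these hairpins were more stable than Mir675 per base. In the predicted folds between 72.7% (miR-483-5p) and 95.7% (miR-298-5p) of the bases of an arm were paired. Of the 10 arms 4 begin with U, as do 40.9% of all arms in the table.

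**Figure D1:**
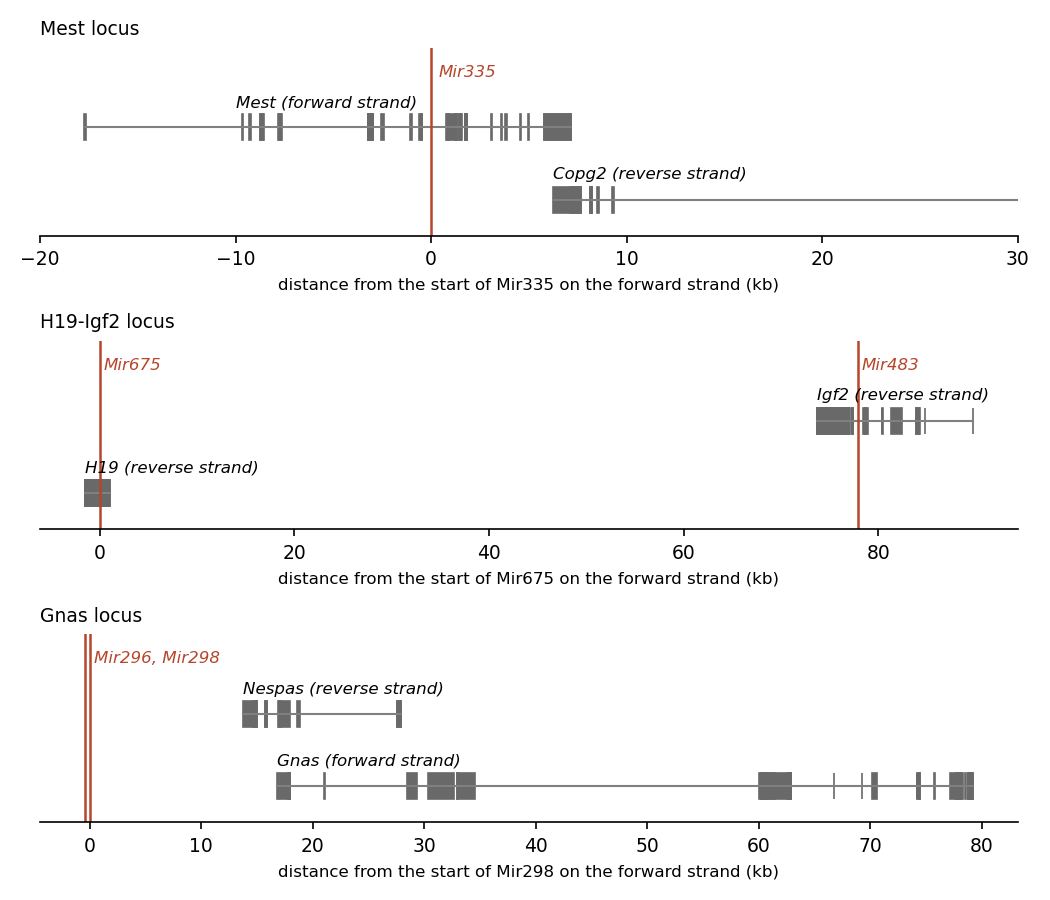
Position of the hairpins (red lines) relative to annotated genes, drawn to scale as distance in kb along the forward strand; grey boxes are the exons of all transcripts of a gene. Mir335 and Mir483 lie inside introns, Mir675 inside H19, and Mir296 and Mir298 lie 14.1 and 13.7 kb beyond the annotated end of Nespas.

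On GRCm38, Mir335 (ENSMUSG00000065501.1) lies on the forward strand of chromosome 6 from 30741299 to 30741396, in an intron of all 7 Mest transcripts that span it. Mir483 (ENSMUSG00000070140.1) lies on the reverse strand of chromosome 7 from 142654924 to 142654996, in an intron of the 7 Igf2 transcripts that span it and of a transcript of the protein-coding gene Gm49394. Mir675 (ENSMUSG00000076275.1) lies on the same strand from 142577064 to 142577147, within an exon of 3 H19 transcripts and an intron of 1 more. It is 77.8 kb from Mir483. Mir298 (ENSMUSG00000065410.1) and Mir296 (ENSMUSG00000065521.1) lie on the reverse strand of chromosome 2, from 174267504 to 174267585 and from 174267047 to 174267125, only 378 bases apart. No annotated transcript of GENCODE M21 covers either of them. They are transcribed in the same direction as Nespas, the antisense transcript of the Gnas locus, and lie downstream of its annotated end, by 13.7 kb for Mir298 and 14.1 kb for Mir296.

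All 5 hairpins were detected, with at least 10 own-strand counts in each library, while 18.2% of all 1973 genes were. Levels are in CPM, counts on the gene's own strand scaled to a library total of 1000000. They spanned nearly the whole range of detected microRNAs, from rank 4 for Mir335 to rank 347 for Mir675 by mean CPM. The 5 levels fell in the same order in each pup, Mir335, Mir298, Mir296, Mir483 and Mir675, and no neighbours in that order overlapped between the animals. The order was the same per 100 bases of hairpin, from 50796 CPM per 100 bases for Mir335 to 7.11 for Mir675.

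**Figure D2:**
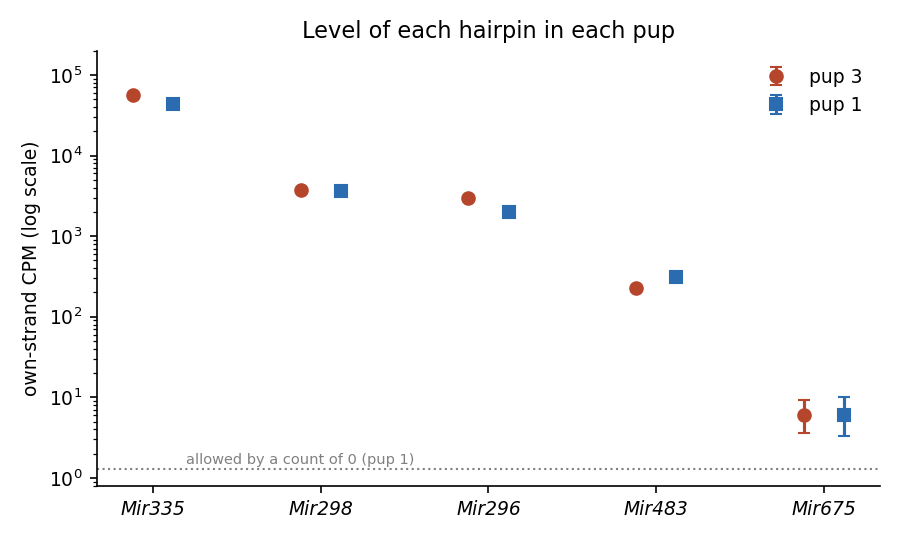
Own-strand CPM of each hairpin on a log axis in pup 3 (circles) and pup 1 (squares), with exact 95% binomial intervals, which are smaller than the symbols except for Mir675. The levels fall from 49781 CPM on average for Mir335 to 5.97 CPM for Mir675, above the dotted line at 1.28 CPM, the upper limit for a hairpin with no count in pup 1.

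Mir335, the microRNA of Mest, is known in human breast cancer as a suppressor of metastasis. It had 179424 counts in pup 3 and 101450 in pup 1, or 56153 CPM in pup 3 (exact 95% binomial interval 55901 to 56406) and 43408 CPM in pup 1 (43147 to 43670). The higher level was in pup 3, and the mean was 49781 ± 9012 CPM (SD, n = 2). It was the fourth most abundant hairpin in each animal among the reads counted, which leave out those mapping to several places, so microRNAs with several copies may rank above it. Mir335 alone made up 88.9% of the counts of the 5 members in pup 3 and 88.0% in pup 1. Among the 672 hairpins that lie in an intron of a protein-coding gene it ranked 2 by mean CPM, behind Mirlet7g. Only 20.7% of those 672 were detected.

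Mir298 and Mir296 come from the antisense side of the Gnas locus. Gnas encodes the stimulatory G protein alpha subunit, which couples receptors to adenylyl cyclase. In mouse, miR-298 has been described as a repressor of Bace1, the beta-secretase. Mir298 had 12050 counts in pup 3 and 8489 in pup 1, or 3771 CPM in pup 3 (3704 to 3839) and 3632 CPM in pup 1 (3556 to 3710). Its level was nearly the same in both animals and averaged 3702 ± 98.2 CPM (SD, n = 2). Mir296 had 9501 counts in pup 3 and 4638 in pup 1, or 2973 CPM in pup 3 (2914 to 3034) and 1984 CPM in pup 1 (1928 to 2042). It was lower than Mir298 in both pups, was higher in pup 3, and averaged 2479 ± 699 CPM (SD, n = 2).

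At the Igf2-H19 locus the levels were far lower. Mir483, in an intron of the growth factor gene Igf2 and known in human Wilms tumour, had 722 counts in pup 3 and 725 in pup 1, or 226 CPM in pup 3 (210 to 243) and 310.2 CPM in pup 1 (288 to 334). The higher level was in pup 1, and the mean was 268 ± 59.6 CPM (SD, n = 2). It ranked 64 among the 672 hairpins in introns of protein-coding genes. Mir675, cut from the long noncoding RNA H19 and known in mouse as a brake on placental growth, had 19 counts in pup 3 and 14 in pup 1. These are 5.95 CPM in pup 3 (3.58 to 9.29) and 5.99 CPM in pup 1 (3.27 to 10.1), a mean of 5.97 ± 0.0311 CPM (SD, n = 2). The pups lay far closer to each other than these intervals are wide, so the SD understates the error of Mir675. A count of 0 would have allowed 0.939 CPM in pup 3 and 1.28 CPM in pup 1, so the counts of Mir675 lay above the counting floor at a very low level. Its hairpin lies within an exon of H19 transcripts, and reads of its arms were not told apart from other fragments of H19 RNA.

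Within the Igf2-H19 locus Mir483 outnumbered Mir675 by 38.0 to 1 in pup 3 and 51.8 to 1 in pup 1. Mir675 accordingly held 2.56% of the counts of the pair in pup 3 (1.55 to 3.98) and 1.89% in pup 1 (1.04 to 3.16), intervals that overlap. Across loci, the mean level of Mir335 was 13.4 times that of Mir298, and that of Mir296 was 9.25 times that of Mir483. The messenger RNAs of Mest, Igf2 and Gnas, and the RNA of H19, were not measured, so no microRNA was set against its host.

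**Figure D3:**
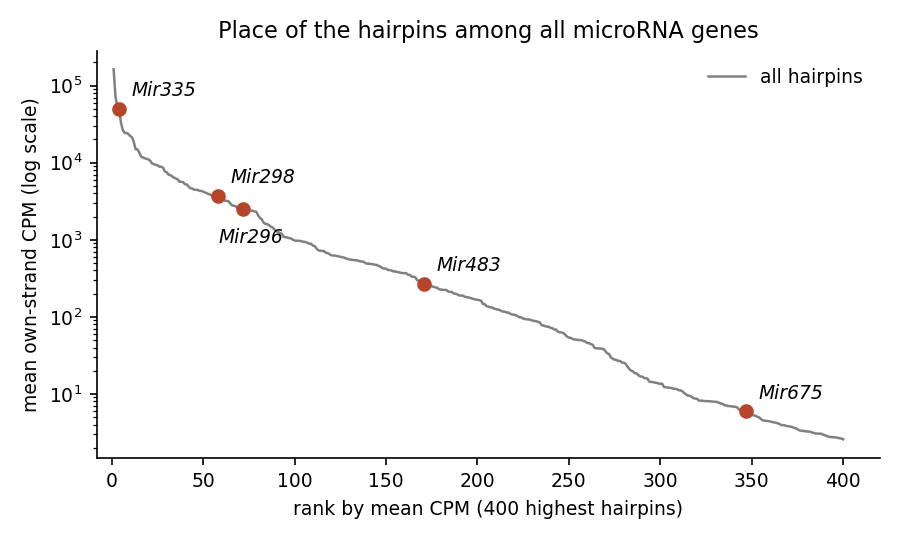
Mean own-strand CPM on a log axis against rank for the 400 highest microRNA genes (grey line), with the 5 members in red. Mir335 sits at rank 4, Mir298 and Mir296 at ranks 58 and 72, Mir483 at rank 171 and Mir675 at rank 347.

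How far the animals differed was described by TMM-scaled ratios, pup 3 over pup 1, for the 286 genes whose counts averaged 50 or more. This filter kept 4 members and left out Mir675. The animals are replicates of 1 group, so the ratios have no replicate check and no test was made. None of the 4 members reached 2-fold in either direction, where 1.75% of all 286 genes did. None reached 1.5-fold either, where 6.64% did. The median absolute log2 ratio was 0.41 over the 4 members and 0.15 over all 286 genes.

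Mir296 had a log2 ratio of 0.53, 1.45-fold higher in pup 3 with a 95% counting interval of 1.40 to 1.5. Only 8 of the 286 genes had a higher ratio. Mir335 had a log2 ratio of 0.32, 1.25-fold higher in pup 3 (1.24 to 1.26), with 19 genes above it. Mir483 went the other way with a log2 ratio of -0.51, a fold of 0.704 (0.634 to 0.782) and so lower in pup 3, and 18 genes had a lower ratio. For these 3 hairpins the counting interval leaves out equality, as it does for 59.4% of the 286 genes, so the members do not stand out by this. With 1 library per pup, differences between animals and between library preparations cannot be told apart. Mir298 had a log2 ratio of 0.01, a fold of 1.00 (0.976 to 1.03), and 281 of the 286 genes differed more in either direction. On that same scale, 24 genes differed more than Mir296, 60 more than Mir335 and 28 more than Mir483. Mir675, below the filter, had a fold of 0.961 with an interval of 0.456 to 2.07, so a 2-fold difference in either direction was not excluded at this depth.

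**Figure D4:**
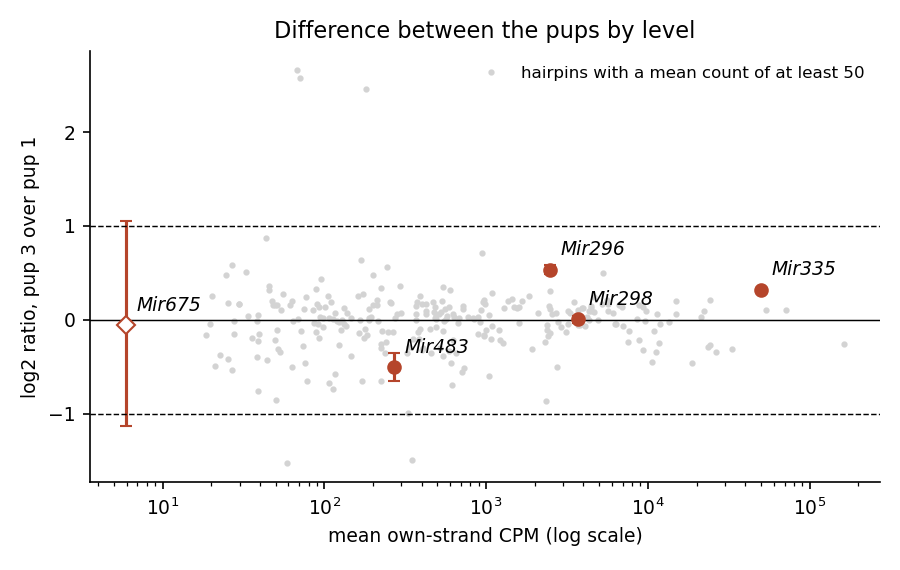
Log2 ratio of pup 3 over pup 1 against mean own-strand CPM (log axis) for the 286 hairpins averaging 50 or more counts (grey) and the members (red) with 95% counting intervals; the open diamond is Mir675, below that minimum, and dashed lines mark 2-fold. Mir296 at 0.53 and Mir335 at 0.32 lie above 0, Mir483 at -0.51 below it, and Mir298 at 0.01.

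Mir296 and Mir298 lie 378 bases apart on 1 strand, but their proportion differed between the 2 libraries. Mir296 held 44.1% of the counts of the pair in pup 3 (exact 95% binomial interval 43.4 to 44.8) and 35.3% in pup 1 (34.5 to 36.2). These intervals lie well apart, but they cover counting error only, with 1 library per pup. Mir298 outnumbered Mir296 1.27 to 1 in pup 3 and 1.83 to 1 in pup 1. The log2 ratios of the neighbours differed by 0.53, and this value does not depend on the scaling of the libraries apart from the prior count. Among the other 92 pairs of neighbouring hairpins on 1 strand within 10 kb, both averaging 50 or more counts, the median difference was 0.18 and 9 pairs differed more. The comparison of pairs was not planned. The hairpins differ in GC content, 63.3% in Mir296 and 53.7% in Mir298, and the part of base composition in the difference was not tested.

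**Figure D5:**
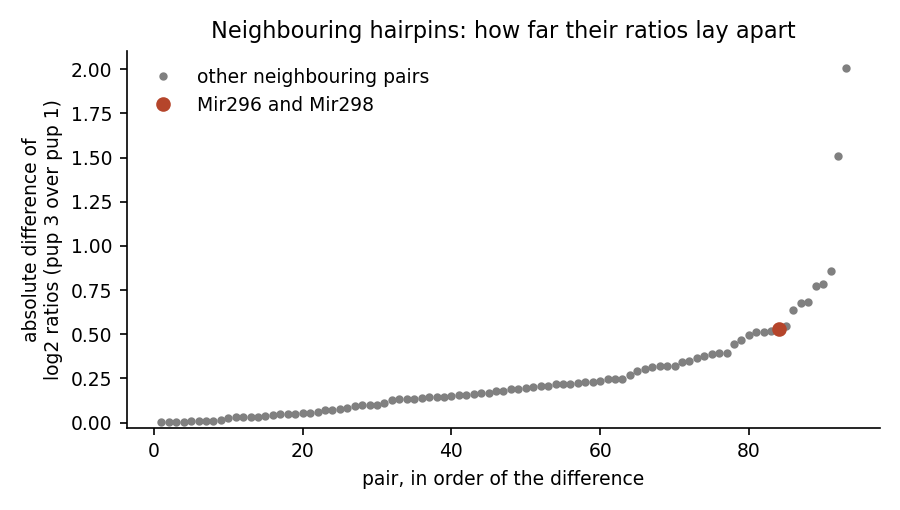
Absolute difference between the log2 ratios (pup 3 over pup 1) of neighbouring hairpins on 1 strand within 10 kb, in rising order; grey points are the other 92 pairs and the red point is Mir296 with Mir298. The red point lies at 0.53, with 9 pairs above it and a median of 0.18.

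Likeness was measured as the distance between log2(CPM + 1) values in the 2 libraries, so it rests on 2 samples. The nearest genes were picked by these same values, so a like level and direction in the pups is favoured by the choice. The gene nearest to Mir335 was Mir487b of the imprinted Dlk1-Dio3 region, at a distance of 0.22, which had 56421 CPM in pup 3, against 50560 CPM in pup 1. Mirlet7g at 0.77 and Mir126a at 0.94 followed at much larger distances, since few hairpins are as abundant. Mir487b shares a run of bases with another hairpin, as do Mir101b, Mirlet7a-2 and Mir146b named next to other members, so the levels of these 4 and their likeness are uncertain. The nearest to Mir298 were Mir433 at 0.035, Mir98 at 0.040 and Mir93 at 0.050, all with about the same level in both pups, from 3702 to 3853 CPM in pup 3 and from 3533 to 3717 CPM in pup 1.

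For Mir296 the nearest genes were Mir18 at 0.16, Mir101b at 0.27 and Mir130b at 0.30. Mir18 reached 2777 CPM in pup 3, against 2168 CPM in pup 1. For Mir483 they were Mir150 at 0.26, Mir3059 at 0.27 and Mirlet7a-2 at 0.27. Mir150 reached 213 CPM in pup 3, against 262 CPM in pup 1. For Mir675 they were Mir7226 at 0.12, Mir146b at 0.18 and Mir6240 at 0.23, each with between 12 and 21 counts in a library.

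Set beside other imprinted regions, the 5 members held less than the Dlk1-Dio3 region did and far more than the microRNA cluster inside Sfmbt2. The 59 hairpins between Dlk1 and Dio3 on chromosome 12 held 15.9% of counts in pup 3 and 15.2% in pup 1, and 47 of them were detected. Their 3 highest were Mir487b, Mir127 at 11948 CPM in the library of pup 3 and 11950 CPM in that of pup 1, and Mir382 at 11834 CPM in pup 3 against 10963 CPM in pup 1. Mir335 by itself, at 5.62% of counts in pup 3 and 4.34% in pup 1, was close to Mir487b in pup 3 and below it in pup 1. The 107 hairpins within Sfmbt2 held 0.441% in pup 3 and 0.419% in pup 1, with 9 detected and Mir467e highest at 1710 CPM in pup 3 against 1502 CPM in pup 1, but 104 of these hairpins share a run with another and are undercounted to an unknown degree.

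At each of the 3 loci a member was the most abundant microRNA counted within 1 Mb: Mir335, Mir483 and Mir298. Mir675 was far below Mir483, and its 19 counts in pup 3 and 14 in pup 1 were little above those of Mir7064, 11 and 5. Among the 11 neighbours that are no members, 3 share a run with another hairpin and can be undercounted. Of the 11 other microRNA genes within 1 Mb of a member, 6 lie near Mir335, and 5 of these were detected. The highest was Mir29a, 321 kb from Mir335, with 677 CPM in pup 3 and 524 in pup 1, against 56153 CPM in pup 3 and 43408 in pup 1 for Mir335. The 3 near Igf2-H19 had 5 to 11 counts, so that Mir483 was the only detected hairpin there besides Mir675, and the 2 near Mir296 and Mir298 had 0 counts in both pups.

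The label of the tissue was checked with microRNA markers of cell types, none of which marks the midbrain as a region. Of 9 neuron-enriched hairpins 7 were detected, with a sum of 48823 CPM in pup 3, against 43806 CPM in pup 1. Mir137, the highest, had 26512 CPM in pup 3 and 22082 in pup 1. The list was split: Mir137 and Mir153 were higher in pup 3, while Mir128-1, Mir128-2 and Mir132 were slightly lower. Mir124a-2 and Mir124a-3, not detected, share a run with other hairpins, so their reads can be missed. The detected Mir124a-1, Mir128-1 and Mir128-2 also share a run with another hairpin and can be undercounted. Of striated muscle, Mir206 had 63 counts in pup 3 and 46 in pup 1, or 19.7 CPM in each. Mir1a-1, Mir133a-1 and Mir133a-2 had 0 counts, but each shares a run with another hairpin, so their reads can be missed and they check nothing. The hepatocyte marker Mir122 had 47.9 CPM in pup 3, against 58.6 CPM in pup 1. The members did not move together between the pups: Mir296 and Mir335 were higher in pup 3, and Mir483 was lower. Some marker lists also differed between the pups. The 5 epithelial hairpins, of the miR-200 family, had a sum of 594 CPM in pup 3, against 94.99 CPM in pup 1. The 3 erythroid hairpins had a sum of 74.2 CPM in pup 3, against 124.5 CPM in pup 1. Of these, Mir451a was lower in pup 3, at 31.0 CPM against 86.4 CPM in pup 1, and Mir144 higher, at 29.1 CPM in pup 3 against 20.1 CPM in pup 1. Mir126a of endothelium had 30095 CPM in pup 3, against 36188 CPM in pup 1. The 5 choroid plexus hairpins had a sum of 4308 CPM in pup 3, against 3941 CPM in pup 1, and the 5 mural and mesenchymal ones of 7337 CPM in pup 3, against 7465 CPM in pup 1. The choroid plexus list was split: Mir449a, Mir34c and Mir34b were higher in pup 3, and Mir204 and Mir211 lower. Mir204 had 1178 CPM in pup 3 against 1350 CPM in pup 1. Mir211 had only 28 counts in pup 3 and 24 in pup 1. Of the mural and mesenchymal list, Mir214 was lower in pup 3, at 206 CPM against 245 CPM in pup 1. Mir143 and Mir145a were nearly level, and Mir199a-2, which shares a run with other hairpins, was higher at low counts. The 3 oligodendrocyte hairpins had a sum of 1549 CPM in pup 3, against 1656 CPM in pup 1. Mir219a-1 and Mir219a-2, which each share a run with another hairpin and can be undercounted, were lower in pup 3, and Mir338 was higher. The part of these cell types in the differences of Mir296, Mir335 and Mir483 was not tested. In bulk tissue, fewer cells of a type and less RNA per cell cannot be told apart.

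The libraries held 3195277 own-strand counts on genes in pup 3 and 2337113 in pup 1, or 43.3% of the reads in the table of pup 3 and 42.8% of those in that of pup 1. Reads mapping to several places, 39.8% in pup 3 and 38.7% in pup 1, were counted under no gene.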

How the data were processed

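Per the deposited file descriptions, each library has 1 table of raw read counts per microRNA gene made by the authors from alignments to assembly mm10 with a GENCODE M4 annotation; which aligner and counter they used is not given in the sources used here. The tables have no header. They hold 3 count columns, read from the values as either strand (always the sum of the other two), own strand and opposite strand. Levels and ratios use the own-strand counts. A further 4 rows name no gene, held 56.7% of the reads in pup 3 and 57.2% in pup 1, and stayed out of all totals.

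Gene symbols, positions and hosts come from GENCODE M21, on the same assembly under its other name, GRCm38, and 1894 of 1973 identifiers matched. Mature and hairpin sequences come from RefSeq (GRCm38.p6), and folds from RNAfold 2.7.2. CPM and their SD over the 2 pups were computed from the deposited counts, with exact (Clopper-Pearson) 95% binomial intervals that cover counting error only, since no molecular identifiers were used. A count of 0 was taken to allow up to 3 counts. Ratios of pup 3 to pup 1 used TMM scaling (edgeR 4.0.16 in R 4.3.3) with a prior count of 0.5, and exact counting intervals from the binomial split of each gene's counts. No p-value was computed, because 1 group of 2 animals allows no comparison of conditions. The ratio calculation was run on simulated counts that held counting noise only, so that run cannot show how the intervals fare with spread between animals or libraries. A chi-square of 33249 on 285 degrees of freedom over 286 genes compared the tables, which differed by more than sampling noise; that the libraries are separate animals rests on the labels.

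The members and lists were chosen with earlier results of these data known. Named genes are the members, the 3 genes nearest in level to each, the 3 highest of the Dlk1-Dio3 list, the highest of each other imprinted list, and cell type markers. Members of marker lists are named as examples. Alternatives were other count minimums, scalings (DESeq2 1.42.0 size factors, plain CPM), prior counts, totals, the either-strand column, scaling by hairpin length and each pup alone.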

Additional observations from a re-analysis of the deposited data

Results flagged for a closer look

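Mir335 also had counts on the strand opposite to its hairpin, in a column that no level above uses. These were 5 counts in pup 3 and 4 counts in pup 1. They are 0.00279% of its either-strand counts in pup 3 and 0.00394% in pup 1. Over all genes that column held 112369 counts in pup 3 and 78231 in pup 1. The own-strand counts were 3195277 in pup 3 and 2337113 in pup 1, so the share of Mir335 was far below that over all genes. The other 4 members had 0 opposite-strand counts in both pups.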

How the results depend on the processing

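No ratio of a member changed sign under any alternative run, though for Mir298 and Mir675 the counting interval includes equality. None of the 4 members tested passed 2-fold with the other count minimums, scalings, prior count or either-strand counts. With TMM scaling none passed 1.5-fold. In the main setting 1.75% of all 286 genes passed 2-fold and 6.64% passed 1.5-fold. Mir296 lay close to 1.5-fold, at 1.45 with an interval reaching 1.5, and at 1.498 with plain CPM. The order of the 5 members stayed the same with either-strand counts, per hairpin length and in each pup alone. All 5 were detected in every setting except at least 50 counts in each library, which 4 met. The summed share of the members, 5.62% ± 0.975 on average (SD, n = 2), was 6.71% without the most abundant gene in the total and 2.42% over all reads in the tables, and lay between 4.93% and 6.31% with 1 pup left out. The other totals scale every level alike. With plain CPM the log2 ratio was 0.37 for Mir335, 0.05 for Mir298, 0.58 for Mir296 and -0.46 for Mir483, and the median of all genes was 0.07 in place of 0.02. The plain CPM values of Mir335 and Mir298 lay outside their counting intervals under TMM scaling. The comparison of neighbouring pairs was not planned, and its other limits were added after seeing the data. Within 1 kb 5 of 51 other pairs differed more than Mir296 and Mir298, and within 50 kb 10 of 102 did. With a mean count of at least 500 it was 8 of 57. Depth limits Mir675, whose 19 counts in pup 3 and 14 in pup 1 do not exclude a 2-fold difference. No paired analysis was possible because the series has 1 group.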
